A study of Rattus norvegicus with 12 samples.

Results

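The genes described here encode extracellular matrix proteins, the integrins that bind them, the enzymes and inhibitors that remodel them, and growth factors secreted into them, as read in rat chondrosarcoma (RCS) chondrocytes with and without FGF18. They were chosen by symbol, from family prefixes such as Col, Lam, Itg, Timp, Serpin and Tgfb, and by a total of 60 or more reads over all 12 libraries. Of the 1998 gene identifiers for which a symbol was at hand, out of 32754 in the counts, 36 matched the prefixes and 21 of these reached the minimum. The pairs of identifier and symbol stood in order of identifier and came from part of a longer table, so other genes of the same families were not analysed here.

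RCS is an immortal rat line that behaves like proliferating chondrocytes. WT RCS and FGFR3/4KO RCS, a CRISPR line that is 1 clone lacking the FGF receptors FGFR3 and FGFR4, were each given vehicle, which was serum alone, or FGF18 overnight. The labels call the vehicle groups untreated and give FGF18 as 50 µg/ml, whereas the methods give the same number in ng/ml. Each of the 4 groups held 3 biological replicates, and all were sequenced by QuantSeq, which reads the 3′ ends of polyadenylated transcripts. Because the knockout is a single clone, the loss of both receptors and any other difference of that clone cannot be told apart. Fgfr3 and Fgfr4 are not among the identifiers named here and were not analysed as a check of the genotype.

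Chondrocytes live inside a matrix of their own making, in which collagen fibrils hold a gel of proteoglycans, and collagen VI forms a thin shell around each cell. Integrins anchor the cell to that matrix, metalloproteinases and ADAMTS enzymes degrade it, and TIMPs and serpins restrain these and other proteases. FGF18 is a ligand of the growth plate that acts mainly through FGFR3 and slows chondrocyte proliferation, and syndecans and glypicans carry the heparan sulfate chains to which FGF ligands bind.

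Each library held between 373964 and 1196647 reads on genes, so that 3 reads were worth 2.46 to 8.50 CPM (counts scaled to a library of 1e+06 reads). Reads set aside for low alignment quality made up 77.0% to 79.8% of all reads in the WT libraries and 71.2% to 74.6% in the FGFR3/4KO libraries, and the part of this in the differences between genotypes was not tested. The 9 chondrocyte marker genes were Sox9, Chad, Epyc, Mia, Prelp, Fmod, Optc, S100b and Col11a2, and all were read. Their summed level was 7832 to 8196 CPM in WT RCS with vehicle, 6784 to 7327 CPM in WT RCS with FGF18, 9038 to 9478 CPM in FGFR3/4KO RCS with vehicle and 9303 to 9986 CPM in FGFR3/4KO RCS with FGF18. Col11a2, Prelp, Fmod and Mia also appear in the results below, so the sum is not independent of them. The markers did not move together in WT RCS with FGF18. Mean Prelp fell from 2169 to 1353 CPM, and mean Mia rose from 1877 to 2425 CPM. The sums of the WT groups overlapped neither each other nor those of the knockout, and the part of this in the results was not tested. No marker of any list was at 0 in all 12 libraries. The other marker lists were low, with sums over all libraries of 21.1 to 41.9 CPM for 6 osteoblast and fibroblast genes and 5.67 to 21.3 CPM for 5 immune genes. The 2 endothelial genes summed to 4.93 to 5.74 CPM in WT RCS with FGF18 and 0 to 2.83 CPM in the other groups. The 6 hepatocyte genes summed to 2 to 13.6 CPM in WT RCS with vehicle, 5.74 to 35.7 CPM in WT RCS with FGF18, 27.6 to 34 CPM in FGFR3/4KO RCS with vehicle and 0 to 9.21 CPM in FGFR3/4KO RCS with FGF18. The part of these in the results was not tested either. Replicates of the FGF18 groups differed more than those with vehicle, by a statistic that also grows with depth. The FGF18 libraries held 840149 to 1196647 reads on genes and the vehicle libraries 373964 to 947730, and the part of depth was not tested. The chi-square of the counts of a pair of replicates, divided by its degrees of freedom, was 1.54 to 1.86 in the vehicle groups, 3.18 to 6.20 in WT RCS with FGF18 and 2.05 to 4.85 in FGFR3/4KO RCS with FGF18, where both pairs with replicate 1 were at 4.83 or above. In bulk RNA, fewer cells that express a gene and less RNA of it per cell cannot be told apart. CPM values below were scaled by the trimmed mean of M-values (TMM), and each is given for replicates 1, 2 and 3 in that order.

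The 21 genes fell into 10 roles. There were 4 collagens (Col5a2, Col6a2, Col11a2 and Col1a1), 1 collagen-modifying enzyme (Plod3), 2 laminin chains (Lama4 and Lamc1), 1 other matrix protein (Matn2), 2 integrin subunits (Itga6 and Itgb5), 2 proteases (Adamts4 and Mmp16), 3 protease inhibitors (Timp2, Timp3 and Serpinb8), 2 cell-surface proteoglycans (Sdc2 and Gpc4) and 1 secreted factor (Tgfb2). A further 3 genes were set apart as name matches. These were Fgfr1op2 (named for its fusion to the receptor gene FGFR1), the kinase gene Bmp2k and Mfap3, whose place in the matrix was not examined. Just above the minimum stood Mmp16 with 71 reads in all and Col1a1 with 73, and just below it Tgfbr3 with 52 and Col6a1 with 46. The 15 matching genes below the minimum, from Itgb1bp2 with 4 reads to Tgfbr3, included Lum with 6 and the integrin genes Itga3, Itga4, Itgav and Itgb4 with 9 to 34, and no change is given for them.

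Of the 21 genes, 18 had enough reads for edgeR's count filter and entered the tests. Adamts4, Col1a1 and Mmp16 did not pass it. Among the 18, 11 lay above the filter's level, 11.3 CPM before TMM scaling, in all 12 libraries. Col5a2 passed mainly through WT RCS with FGF18, where 3 of 3 libraries lay above that level against 1 of the other 9, so that its entry into the tests favours a difference from that group. Tests were edgeR quasi-likelihood tests in 1 model over the 12 libraries, with the false discovery rate (FDR) adjusted over all 7378 genes tested and a threshold of 0.05. A log2 fold change (log2 FC) is given ± its standard error, and a mean level ± SD.

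The first question was what FGF18 did to these genes in WT RCS. Col6a2, Col5a2, Serpinb8, Timp2, Plod3 and Itgb5 rose, and Tgfb2 fell. That is 6 of the 18 tested genes higher, or 5 without Col5a2, and 1 lower, where FGF18 changed 25.7% of all genes tested, 12.9% higher and 12.8% lower. The median log2 fold change was 0.32 over the 18 genes and 0.02 over all genes. The remaining 11 did not pass the test, and 12 of the 18, Col5a2 and Bmp2k among them, had an unadjusted p under 0.05, as had 36.2% of all genes. The FGF18 libraries of WT RCS lay above the vehicle libraries without overlap for 8 genes, Col5a2 among them, and below them for 2, Tgfb2 and Bmp2k. Over all genes tested the shares were 20.2% above and 19.5% below, 39.6% in all.

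**Figure D1:**
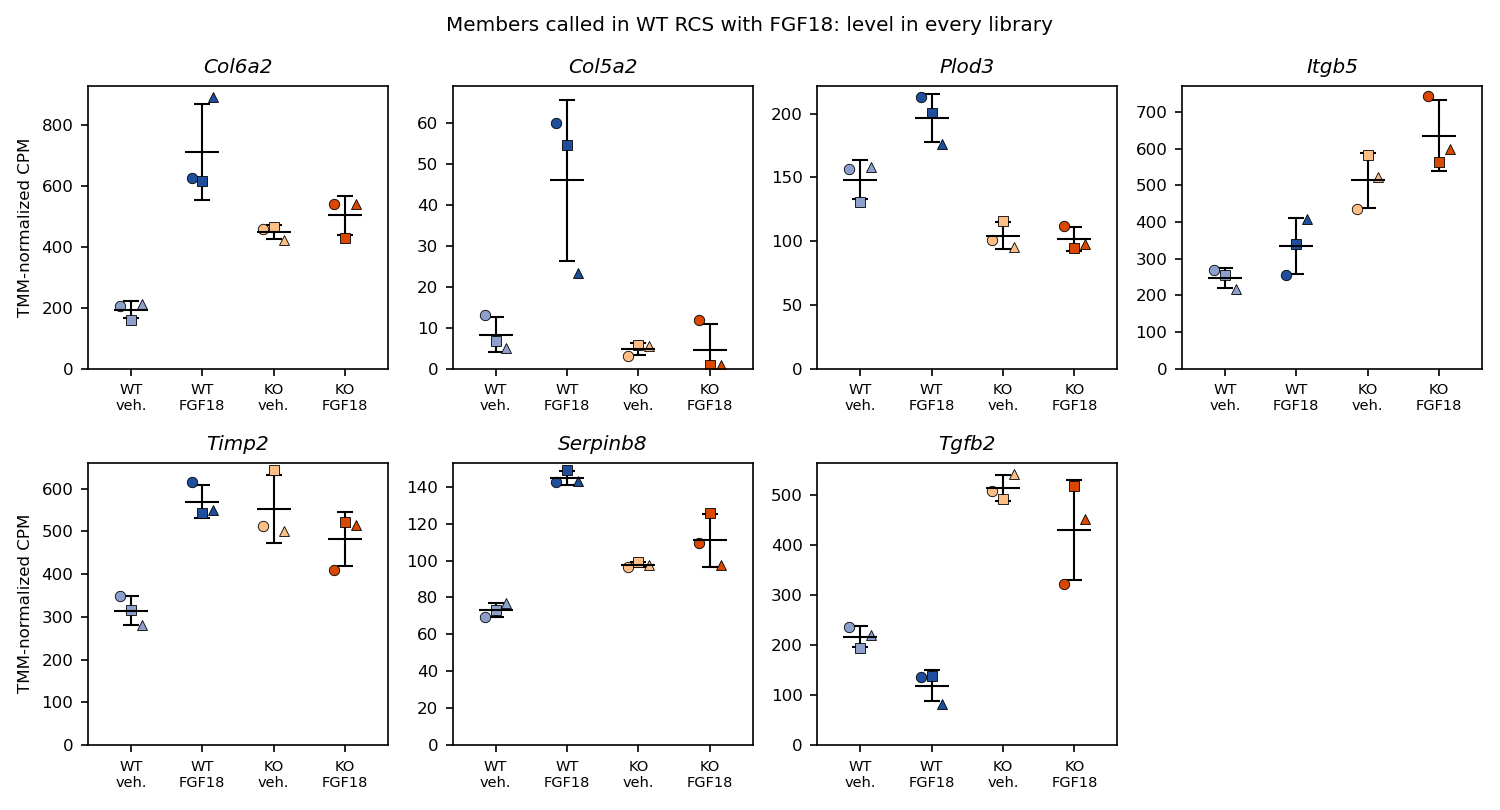
Level in TMM-normalized CPM (linear axis from 0) of the 7 genes called with FGF18 in WT RCS, in WT and FGFR3/4KO (KO) libraries with vehicle (veh.) or FGF18. Points are libraries (circle, square and triangle for replicates 1, 2 and 3), and bars are mean ± SD of 3. With FGF18, the WT libraries of Col6a2 sit at 614 to 891 CPM, above its WT vehicle libraries at 160.5 to 211 CPM, and those of Tgfb2 sit below theirs.

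The stretch of 250 bases before the start site was taken from the RefSeq promoter table (build GRCr8) for 3 of the genes that moved with FGF18 in WT RCS, to set the genes that rose beside the one that fell. The counts themselves were made on the older build rn6. Timp2 lies on the minus strand and its stretch is chr10:104089215-104089464. The stretch of Col5a2 is chr9:55090152-55090401, also on the minus strand, and that of Tgfb2 is chr13:100792686-100792935, on the minus strand as well. Each sequence is written 5′ to 3′ in the direction of transcription, and capitals mark the motif matches described after them.
Timp2: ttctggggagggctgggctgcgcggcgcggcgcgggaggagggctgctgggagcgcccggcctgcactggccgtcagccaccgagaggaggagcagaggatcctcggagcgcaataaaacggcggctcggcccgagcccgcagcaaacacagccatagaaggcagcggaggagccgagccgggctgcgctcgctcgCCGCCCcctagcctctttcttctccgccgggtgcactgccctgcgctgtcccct
Col5a2: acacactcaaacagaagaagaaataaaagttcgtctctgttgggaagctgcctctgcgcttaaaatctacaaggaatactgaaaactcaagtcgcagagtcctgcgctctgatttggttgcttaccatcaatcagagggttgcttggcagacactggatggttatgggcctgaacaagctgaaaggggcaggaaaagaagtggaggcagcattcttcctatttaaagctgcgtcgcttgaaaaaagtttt
Tgfb2: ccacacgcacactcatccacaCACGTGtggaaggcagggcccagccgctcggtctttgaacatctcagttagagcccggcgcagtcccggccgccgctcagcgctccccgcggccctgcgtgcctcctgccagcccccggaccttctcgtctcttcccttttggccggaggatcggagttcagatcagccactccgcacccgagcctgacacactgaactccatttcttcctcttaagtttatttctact

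A promoter was matched by symbol for 14 of the 21 genes, and 33469 promoters in all were searched on both strands for 6 motifs, namely the AP-1 site TGANTCA, the E-box CACGTG, the ETS site CCGGAAG, the GC box GGGCGG, the TATA box TATAAA and the SOX site ACAATGG. Matches of different motifs did not overlap in any of the 14. The 14 belong to genes that reached a minimum of reads in RCS, whereas the promoters in all were not chosen by reads. The shares below are therefore of unlike sets. The GC box was held by 9 of the 14 promoters (Bmp2k, Col11a2, Fgfr1op2, Gpc4, Lamc1, Mfap3, Plod3, Timp2 and Timp3), against 30.5% of all promoters, and the Timp2 match begins at position -54 from the start site. The E-box was held by 1 of the 14, Tgfb2, against 5.59% of all promoters, at position -229. Lama4 held the TATA box, present in 12.9% of promoters, and Mfap3 the ETS site, present in 7.27%. The AP-1 site (6.34% of promoters) and the SOX site (3.23%) were in none of the 14, and the Col5a2 stretch held none of the 6. Col1a1, Col6a2, Itga6, Matn2, Mmp16, Sdc2 and Serpinb8 had no entry.

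Among the collagens, Col6a2 and Col5a2 passed the test with FGF18 in WT RCS. Col6a2, a chain of the microfibrillar collagen VI that surrounds chondrocytes, stood at 206, 160.5 and 211 CPM with vehicle and at 625, 614 and 891 CPM with FGF18. Its group means were 192 ± 27.8 and 710.1 ± 157 CPM (SD, n = 3), and each FGF18 library lay above each vehicle library. The rise was 3.67-fold, a log2 fold change of 1.88 ± 0.16, FDR = 6.71e-10 (edgeR).

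Col5a2, a chain of collagen V, which helps start collagen fibrils, was far lower in level, with 9, 5 and 5 reads with vehicle and 73, 57 and 19 with FGF18. In CPM these were 13, 6.80 and 5, then 59.8, 54.5 and 23.4. The lowest of the FGF18 libraries was replicate 3, still above all vehicle libraries. The log2 fold change was 2.55 ± 0.47, FDR = 1.77e-04 (edgeR), and without the filter FDR = 6.82e-10 (log2 FC 2.53).

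Col11a2, a chain of the cartilage collagen XI and the most read of the collagens here, stood at 803, 602 and 697 CPM in the WT vehicle libraries and 631, 679 and 692 CPM in those with FGF18, which overlapped (log2 FC -0.07 ± 0.13, FDR = 0.740, edgeR). Col1a1, the main fibrillar collagen chain of bone and skin, was read 0, 3 and 0 times in the WT vehicle libraries and 7, 8 and 18 times with FGF18, and in FGFR3/4KO RCS 7, 2 and 11 times with vehicle and 2, 5 and 10 times with FGF18. The WT FGF18 libraries were all above the WT vehicle libraries, and the gene was not tested because it did not pass the filter. Plod3, a lysyl hydroxylase that also adds sugars to collagen in the endoplasmic reticulum, rose from 157, 131 and 158 to 213, 201 and 176 CPM (log2 FC 0.41 ± 0.15, FDR = 0.0395, edgeR). This call was held by 3 of the 12 fits that leave out 1 library, those without WT FGF18 replicate 3 or FGFR3/4KO FGF18 replicate 1 or 2, and the FDR was 0.0508 to 0.184 in the other 9. It was also lost by DESeq2 (FDR = 0.104), without the filter (0.102), with the replicate block (0.0590) and in the WT groups alone (0.0538).

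All 3 protease inhibitors had higher means with FGF18 in WT RCS, and 2 of them passed the test. Timp2, an inhibitor of matrix metalloproteinases, stood at 348, 315 and 281 CPM with vehicle and 615, 543 and 551 CPM with FGF18, and the groups did not overlap. The rise was 1.82-fold (log2 FC 0.86 ± 0.14, FDR = 2.62e-05, edgeR). Serpinb8, a serpin of the intracellular clade, stood at 69.6, 73.4 and 77 CPM with vehicle and at 143, 149 and 143 CPM with FGF18, with an SD under 5 CPM in both groups. It rose 1.97-fold (log2 FC 0.98 ± 0.16, FDR = 2.85e-05, edgeR).

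Timp3, a TIMP that binds to the matrix and also inhibits ADAMTS enzymes, stood at 7.25, 10.9 and 3 CPM with vehicle and 9.02, 19.1 and 14.8 CPM with FGF18, groups that overlapped, and it did not pass the test (log2 FC 1.06 ± 0.43, FDR = 0.0734, edgeR). Of the proteases, the aggrecanase gene Adamts4 was read 3, 3 and 4 times with vehicle and 12, 13 and 13 times with FGF18 in WT RCS, and Mmp16, a membrane-bound metalloproteinase, 2, 6 and 9 times with vehicle and 13, 8 and 9 times with FGF18. In FGFR3/4KO RCS, Adamts4 was read 0, 2 and 8 times with vehicle and 8, 7 and 5 times with FGF18. Both genes were below the filter and were not tested, and the Adamts4 reads with FGF18 exceeded those with vehicle in all pairs of WT libraries.

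Tgfb2, which encodes the secreted ligand TGF-β2, was the gene of the group that fell. It stood at 236, 194 and 221 CPM with vehicle and 136, 138 and 82.6 CPM with FGF18 in WT RCS. All FGF18 libraries were below all vehicle libraries, with group means of 217 ± 21.1 and 119 ± 31.4 CPM (SD, n = 3) and a log2 fold change of -0.85 ± 0.18, FDR = 8.15e-04 (edgeR).

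Of the integrins, Itgb5, the β subunit that pairs with αv and binds vitronectin, stood at 269.6, 254 and 218 CPM with vehicle and 257, 339.6 and 409 CPM with FGF18, and the libraries overlapped. Its call was the narrowest (log2 FC 0.44 ± 0.16, FDR = 0.0475, edgeR), and it was held by 2 of the 12 fits that leave out 1 library, those without WT FGF18 replicate 1 or FGFR3/4KO FGF18 replicate 1, with an FDR of 0.0501 to 0.275 in the other 10. Its log2 FC was 0.26 without WT FGF18 replicate 3. The call was also lost by DESeq2 (FDR = 0.0856), with the replicate block (0.0759), with RLE normalization (0.0516) and in the WT groups alone (0.0537). Itga6, the α subunit of laminin receptors, had a log2 fold change of 0.14 ± 0.37, FDR = 0.816 (edgeR).

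The 2 laminin chains did not pass the test in WT RCS. Lamc1, a γ chain shared by many laminins, had log2 FC -0.24 ± 0.20, FDR = 0.406, and Lama4 had log2 FC 1.17 ± 0.51, FDR = 0.0949 (edgeR) at 14.5, 2.72 and 6 CPM with vehicle and 14.8, 18.2 and 18.5 CPM with FGF18. For Lama4 the FGF18 libraries were above the vehicle libraries, by a margin of less than 1 CPM. Among the carriers of heparan sulfate, Sdc2 had log2 FC 0.43 ± 0.17, FDR = 0.0687 and Gpc4 log2 FC 0.13 ± 0.46, FDR = 0.867 (edgeR). Sdc2 stood at 81.2, 84.3 and 86.9 CPM with vehicle and 115, 93.7 and 134 CPM with FGF18, and Gpc4 was under 20 CPM in every library. The matrilin gene Matn2 had log2 FC -0.75 ± 0.36, FDR = 0.134, and the genes set apart as name matches had log2 FC 0.23 ± 0.15, FDR = 0.290 for Fgfr1op2, log2 FC -1.39 ± 0.58, FDR = 0.0784 for Bmp2k and log2 FC -0.09 ± 0.22, FDR = 0.793 for Mfap3 (edgeR).

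The same treatment was then compared within FGFR3/4KO RCS, where FGF18 changed 0 of the 18 genes, and 0% of all 7378 genes tested by edgeR. The lowest FDR among the 18 was 0.752, their median log2 fold change was -0.04 against 0.01 over all genes, and 1 of them had an unadjusted p under 0.05. DESeq2 also called 0 of the 18. Over all genes, 6.48% (478) had an unadjusted p under 0.05. The FGF18 libraries of FGFR3/4KO RCS lay above the vehicle libraries without overlap for 1 of the 18 genes and below them for 2, against 6.38% above and 6.29% below over all genes, 12.7% together. The gene with the low p was Lamc1, at 150.1, 139 and 156 CPM with vehicle and 83.1, 124 and 111 CPM with FGF18, whose FGF18 libraries were all below the vehicle libraries (log2 FC -0.48 ± 0.19, FDR = 0.752, edgeR).

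The genes that FGF18 moved in WT RCS stood as follows in FGFR3/4KO RCS. Col6a2 was at 458, 465 and 423 CPM with vehicle and 541, 429 and 539 CPM with FGF18 (log2 FC 0.17 ± 0.15, FDR = 0.853, edgeR). Timp2 was at 513, 643 and 501 CPM with vehicle and 409, 522 and 515 CPM with FGF18 (log2 FC -0.18 ± 0.14, FDR = 0.837, edgeR). In both genes the 2 treatments overlapped. Serpinb8 was at 96.5, 99.1 and 97.5 CPM with vehicle and 109, 126 and 97.6 CPM with FGF18 (log2 FC 0.19 ± 0.16, FDR = 0.848, edgeR). Tgfb2 was at 509, 493 and 542 CPM with vehicle and 322, 518 and 452 CPM with FGF18 (log2 FC -0.25 ± 0.16, FDR = 0.809, edgeR), with replicate 1 under FGF18 well below the other libraries. Col5a2, with few reads, was read 2, 2 and 5 times with vehicle and 9, 1 and 1 times with FGF18. The standard error of its log2 change, 0.84, is wide. Itgb5 was at 435, 584 and 522 CPM with vehicle and 745, 565 and 599 CPM with FGF18. Its log2 fold change there was 0.31 ± 0.15, FDR = 0.755 (edgeR), against 0.44 in WT RCS. Plod3 was at 101, 116 and 95.3 CPM with vehicle and 112, 94.8 and 97.6 CPM with FGF18 (log2 FC -0.02 ± 0.17, FDR = 0.992, edgeR).

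**Figure D2:**
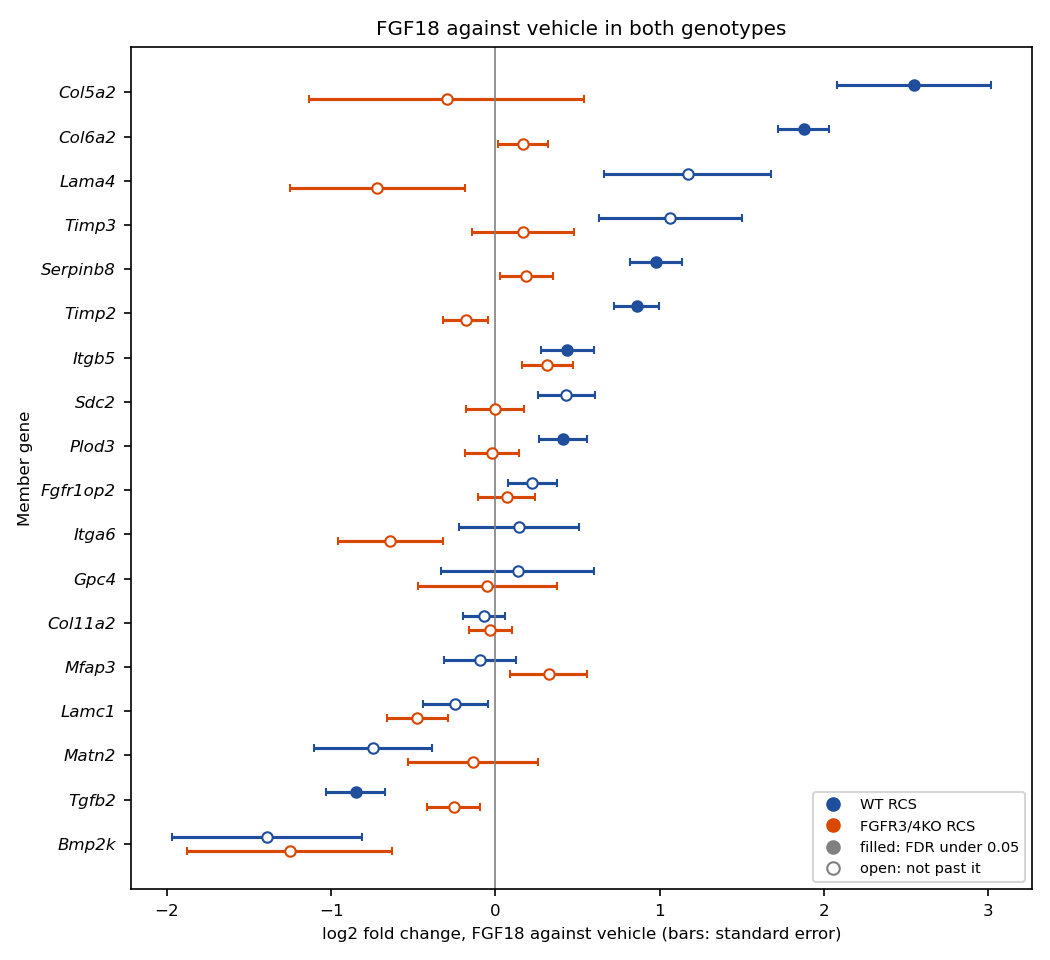
Log2 fold change of FGF18 against vehicle (horizontal axis, bars are standard errors) of the 18 tested genes in WT RCS (blue) and FGFR3/4KO RCS (orange), ordered by the WT value. Filled points passed an FDR of 0.05, as 7 genes did in WT RCS against 0 in the knockout.

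Whether the FGF18 effect itself differed between genotypes was tested with the interaction term, the change in FGFR3/4KO RCS minus that in WT RCS. It was past the threshold for 3 of the 18 genes with a lower effect in FGFR3/4KO RCS, and 0 had a higher effect there. Over all genes tested it was past the threshold for 10.9%, 4.96% lower and 5.91% higher. The 3 genes were Col6a2 at log2 difference -1.71 ± 0.22, FDR = 4.25e-06, Timp2 at log2 difference -1.04 ± 0.19, FDR = 5.56e-04 and Serpinb8 at log2 difference -0.79 ± 0.23, FDR = 0.0218 (edgeR), that is, 1 collagen chain and 2 protease inhibitors. The term of Serpinb8 missed the threshold in 6 of the 12 fits that leave out 1 library (FDR = 0.0501 to 0.0856), those without WT vehicle replicate 1 or 2, WT FGF18 replicate 2, FGFR3/4KO vehicle replicate 1 or 3, or FGFR3/4KO FGF18 replicate 3. DESeq2 (FDR = 0.0600) and the fit without the filter (0.0727) also lost it, while the terms of Col6a2 and Timp2 passed in all 17 alternatives. For the other 4 genes that FGF18 moved in WT RCS, a difference between genotypes was not shown: Col5a2 had log2 difference -2.84 ± 1.03, FDR = 0.0778, Tgfb2 log2 difference 0.60 ± 0.24, FDR = 0.122, Plod3 log2 difference -0.43 ± 0.22, FDR = 0.248 and Itgb5 log2 difference -0.12 ± 0.22, FDR = 0.804 (edgeR). The Col5a2 term, on few reads, depended on the fit and on single libraries. With all libraries it passed the threshold by the likelihood-ratio test (-2.77, FDR = 0.0213) and without the filter (-2.81, FDR = 0.0152). It also passed without FGFR3/4KO FGF18 replicate 1 (-4.72, FDR = 0.00318) or WT FGF18 replicate 3 (-3.10, FDR = 0.0301). The entry of Col5a2 into the tests favours a difference from WT RCS with FGF18, a group of this term. The Tgfb2 term passed the threshold without FGFR3/4KO FGF18 replicate 1 (0.79, FDR = 0.0139) and without the filter (0.64, FDR = 0.0474).

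The genotypes were next compared without FGF18. With vehicle, FGFR3/4KO RCS had higher levels of Tgfb2, Col6a2, Itgb5, Timp2, Timp3, Lamc1, Itga6 and Col11a2 than WT RCS, and lower levels of Fgfr1op2 and Plod3. These are 8 genes higher and 2 lower of the 18, against 14.1% of all genes tested, 8% higher and 6.07% lower. The median log2 fold change was 0.54 over the 18 genes and -0.01 over all genes. The knockout libraries lay above the WT libraries without overlap for 11 genes and below them for 2, against 17.1% above and 17.1% below over all genes, 34.2% together. This comparison shares its vehicle libraries with those of FGF18.

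Timp3 differed most in fold among the called genes, on only 5, 8 and 3 reads in the WT vehicle libraries. Of these libraries 1 lay above the filter's level, against 3 of 3 in the knockout with vehicle. Timp3 stood at 7.25, 10.9 and 3 CPM in WT RCS and 26, 31.2 and 30.7 CPM in FGFR3/4KO RCS with vehicle, a difference of log2 FC 2.11 ± 0.41, FDR = 7.21e-04 (edgeR). Its call held in all 18 alternatives, the fit without the filter among them. Tgfb2 stood at 236, 194 and 221 CPM and 509, 493 and 542 CPM in the same groups, a 2.38-fold difference (log2 FC 1.25 ± 0.17, FDR = 9.79e-06, edgeR). The knockout libraries of both genes were all above the WT libraries.

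Col6a2 was 2.32-fold higher in FGFR3/4KO RCS with vehicle (log2 FC 1.21 ± 0.16, FDR = 5.63e-06, edgeR), at 449 ± 22.3 against 192 ± 27.8 CPM (SD, n = 3). Timp2 was 1.74-fold higher (log2 FC 0.80 ± 0.14, FDR = 1.96e-04, edgeR). Serpinb8 lay above the WT vehicle libraries in all knockout vehicle libraries and did not pass the test (log2 FC 0.41 ± 0.17, FDR = 0.116, edgeR). With vehicle, Col6a2 in the knockout lay between the vehicle and FGF18 libraries of WT RCS, and Timp2 in the knockout overlapped the WT libraries with FGF18.

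Both integrin subunits were higher in FGFR3/4KO RCS with vehicle. Itgb5 stood at 269.6, 254 and 218 CPM in WT RCS and 435, 584 and 522 CPM in FGFR3/4KO RCS (log2 FC 1.05 ± 0.16, FDR = 5.46e-05, edgeR). Itga6 stood at 10.1, 12.2 and 21 CPM in WT RCS and 36.8, 31.2 and 36.2 CPM in the knockout (log2 FC 1.22 ± 0.35, FDR = 0.0181, edgeR), and its call was lost without WT vehicle replicate 1 or 2 or without FGFR3/4KO vehicle replicate 1 or 3 (FDR = 0.0656 to 0.0822) and by DESeq2 (0.0543). In both genes the genotypes did not overlap.

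The laminin chain Lamc1 stood at 75.4, 80.2 and 99.9 CPM in WT RCS and 150.1, 139 and 156 CPM in FGFR3/4KO RCS with vehicle (log2 FC 0.80 ± 0.19, FDR = 0.00539, edgeR). Col11a2 stood at 898, 1042 and 838 CPM in FGFR3/4KO RCS with vehicle, against the WT values above (log2 FC 0.40 ± 0.13, FDR = 0.0414, edgeR). This small difference missed the threshold without WT vehicle replicate 2 or 3, WT FGF18 replicate 2 or FGFR3/4KO vehicle replicate 1 or 2 (FDR = 0.0594 to 0.211), and with the replicate block (0.0613).

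On the lower side, Fgfr1op2 stood at 129, 128 and 125 CPM in WT RCS and 82.7, 73.6 and 67.9 CPM in FGFR3/4KO RCS with vehicle (log2 FC -0.77 ± 0.17, FDR = 0.00222, edgeR). Plod3 stood at 101, 116 and 95.3 CPM in FGFR3/4KO RCS, below its WT libraries (log2 FC -0.54 ± 0.16, FDR = 0.0269, edgeR), and its call was lost without WT vehicle replicate 1 or 3 or without FGFR3/4KO vehicle replicate 1 or 3 (FDR = 0.0916 to 0.136) and by DESeq2 (0.0639). Fgfr1op2 shares part of its name with the FGF receptors and encodes no receptor.

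**Figure D3:**
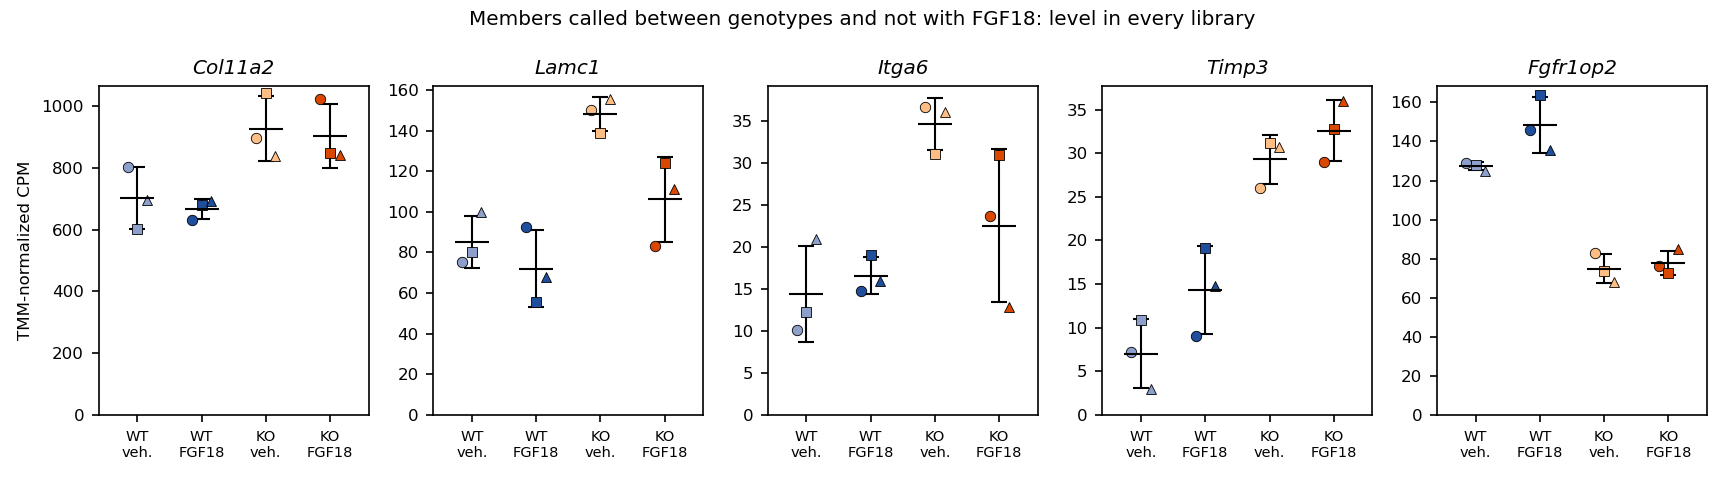
Level in TMM-normalized CPM (linear axis from 0) of the 5 genes called between genotypes and not with FGF18, in WT and FGFR3/4KO (KO) libraries with vehicle (veh.) or FGF18. Points are libraries (circle, square and triangle for replicates 1, 2 and 3) and bars are mean ± SD of 3. Timp3 lies at 26 to 31.2 CPM in the knockout with vehicle and 3 to 10.9 CPM in WT with vehicle, and Fgfr1op2 is lower in all knockout libraries than in all WT libraries.

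With FGF18 present, the comparison of genotypes called 5 genes higher and 5 lower of the 18, against 33.9% of all genes tested, 16.9% higher and 17% lower. The 5 lower include Col5a2, whose entry into the tests favours a difference from WT RCS with FGF18. Tgfb2, Itgb5, Timp3, Lamc1 and Col11a2 were higher in FGFR3/4KO RCS, and Col5a2, Plod3, Fgfr1op2, Col6a2 and Serpinb8 were lower. The median log2 fold change was 0.01 over the 18 genes. The libraries of FGFR3/4KO RCS lay above those of WT RCS without overlap for 4 genes and below them for 6, Col5a2 among the latter, against 20.5% above and 21.5% below over all genes, 42% together.

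Tgfb2 stood at 136, 138 and 82.6 CPM in WT RCS and 322, 518 and 452 CPM in FGFR3/4KO RCS with FGF18, 3.59-fold higher in the knockout (log2 FC 1.85 ± 0.17, FDR = 4.75e-09, edgeR), against 1.25 on the log2 scale with vehicle. Col6a2 went the other way. It was higher in the knockout with vehicle and lower with FGF18 (log2 FC -0.50 ± 0.14, FDR = 0.00900, edgeR), though the latter call was lost without WT FGF18 replicate 3 (log2 FC -0.27, FDR = 0.131) or FGFR3/4KO FGF18 replicate 2 (FDR = 0.0737).

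Col5a2, which passed the filter through WT RCS with FGF18, stood in the FGF18 libraries at 59.8, 54.5 and 23.4 CPM in WT RCS and 11.9, 0.886 and 0.921 CPM in FGFR3/4KO RCS (log2 FC -3.58 ± 0.52, FDR = 4.40e-06, edgeR), on 1 to 9 reads per knockout library. Without FGFR3/4KO FGF18 replicate 1, which held 9 of those reads, it was -5.46 on the log2 scale. The Col5a2 call held in all 18 alternatives, the fit without the filter among them. Plod3 stood at 213, 201 and 176 CPM in WT RCS and 112, 94.8 and 97.6 CPM in FGFR3/4KO RCS (log2 FC -0.97 ± 0.15, FDR = 1.22e-05, edgeR). Both genes were lower in every knockout library than in every WT library.

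Fgfr1op2 (log2 FC -0.93 ± 0.15, FDR = 2.70e-05), Itgb5 (log2 FC 0.93 ± 0.15, FDR = 3.26e-05) and Timp3 (log2 FC 1.21 ± 0.32, FDR = 0.00397, edgeR) kept the direction they had with vehicle. Lamc1 had log2 FC 0.56 ± 0.19, FDR = 0.0221 (edgeR), lost without WT FGF18 replicate 2 or FGFR3/4KO FGF18 replicate 2 (FDR = 0.117 to 0.118), by DESeq2 (0.0527) and in the FGF18 groups alone (0.0559). Col11a2 had log2 FC 0.44 ± 0.13, FDR = 0.0100 (edgeR). Serpinb8 had log2 FC -0.38 ± 0.15, FDR = 0.0435 (edgeR), a call that was held in 1 of the 12 fits that leave out 1 library, the one without FGFR3/4KO FGF18 replicate 2, with an FDR of 0.0563 to 0.271 in the other 11 (log2 FC -0.25 without FGFR3/4KO FGF18 replicate 3). DESeq2 (FDR = 0.171), the fit without the filter (0.176), the replicate block (0.0569) and the FGF18 groups alone (0.0924) lost it too. Timp2, higher in the knockout with vehicle, had log2 FC -0.24 ± 0.13, FDR = 0.173 (edgeR) with FGF18. Itga6, also higher in the knockout with vehicle, had log2 FC 0.44 ± 0.33, FDR = 0.327 (edgeR) with FGF18, and its libraries overlapped.

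**Figure D4:**
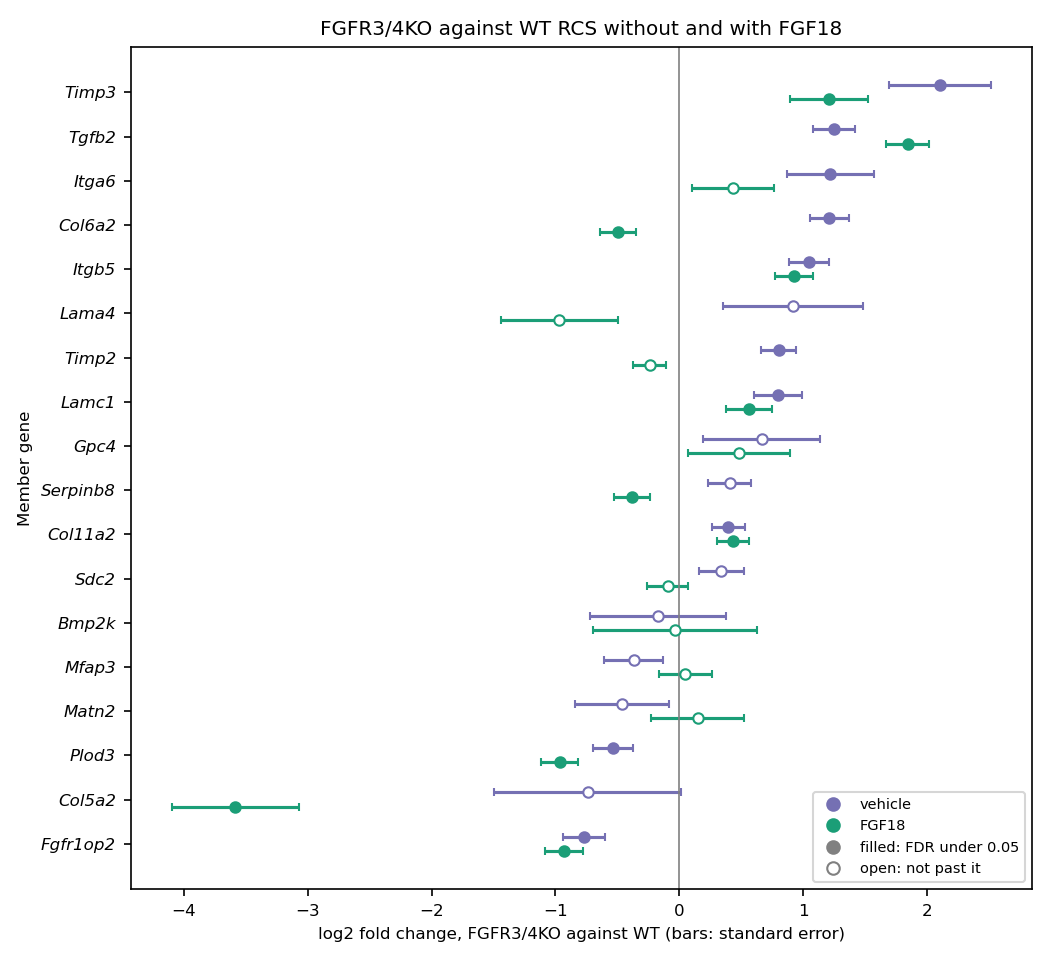
Log2 fold change of FGFR3/4KO against WT RCS (horizontal axis, bars are standard errors) of the 18 tested genes with vehicle (purple) and with FGF18 (green), ordered by the vehicle value. Filled points passed an FDR of 0.05. Col6a2 lies at 1.21 with vehicle and -0.50 with FGF18.

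Across the 5 tests, 12 of the 18 genes were called at least once, as were 46.3% of all genes tested. The other 6, Lama4, Bmp2k, Gpc4, Mfap3, Sdc2 and Matn2, were called in none. With 1 library left out, Lama4 passed in WT RCS with FGF18 and in the interaction without WT vehicle replicate 1 (log2 FC 1.86, FDR = 0.0303, and log2 difference -2.58, FDR = 0.0431). It passed in the interaction and between genotypes with FGF18 without FGFR3/4KO FGF18 replicate 2 (log2 difference -3.03, FDR = 0.0115, and log2 FC -2.11, FDR = 0.00682, against -0.97 with all libraries). With FGF18 in WT RCS, Bmp2k, whose entry into the tests favours a fall, passed by the likelihood-ratio test (FDR = 0.0391) and without WT FGF18 replicate 1 (0.0494). Sdc2 (0.0390) and Matn2 (0.0464) passed without WT FGF18 replicate 2 in the same comparison. Lama4, Bmp2k, Gpc4 and Matn2 were below the filter's level in 1 or more libraries, and a difference in them may not have been detectable at this depth.

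Other genes of the matrix and of its signals were read from lists chosen by function. Of the cartilage matrix list, 9 of 13 genes were tested, and in WT RCS 2 were higher and 3 lower with FGF18 (12.9% and 12.8% of all genes), with a median log2 fold change of -0.01. Podnl1 rose (log2 FC 1.07 ± 0.16, FDR = 1.49e-05, edgeR), as did Mia (log2 FC 0.37 ± 0.11, FDR = 0.0158, edgeR), whereas Prelp (log2 FC -0.68 ± 0.11, FDR = 3.74e-05, edgeR) and Fmod (log2 FC -0.57 ± 0.13, FDR = 0.00206, edgeR), small leucine-rich proteoglycans that bind collagen, fell. The interaction term was positive for Prelp (log2 difference 0.74 ± 0.16, FDR = 0.00205) and Fmod (log2 difference 0.79 ± 0.19, FDR = 0.00505, edgeR) and negative for Podnl1 (log2 difference -0.97 ± 0.24, FDR = 0.00710, edgeR).

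Of the ligands and antagonists, 8 of 15 were tested, and in WT RCS edgeR called 4 genes higher with FGF18, Vgf among them, and 0 lower (0 lower at an unadjusted p under 0.05). Over all genes tested the shares were 12.9% higher and 12.8% lower, which also stand beside the lists that follow. C1qtnf1 rose (log2 FC 2.81 ± 0.52, FDR = 1.98e-04, edgeR), as did Vasn, which binds TGF-β (log2 FC 1.42 ± 0.28, FDR = 4.12e-04, edgeR), and the follistatin-like gene Fstl1 (log2 FC 0.49 ± 0.13, FDR = 0.00554, edgeR). C1qtnf1 was read 2 times in each WT vehicle library and 13 to 26 times in those with FGF18, so its fold change rests on few reads. Its WT vehicle libraries lay below the filter's level, so that its entry into the tests favours a difference from them. Vgf was read 0 times in each WT vehicle library and 19 to 25 times with FGF18, so no fold change is given. In the knockout it was read at most 1 time in a library. It passed the filter through WT RCS with FGF18, so that its entry into the tests favours a rise. Of the growth factor receptors, 5 of 10 were tested and 2 rose, the BMP receptor gene Acvr1 (log2 FC 1.42 ± 0.49, FDR = 0.0312, edgeR) and the netrin receptor gene Unc5b (log2 FC 0.57 ± 0.21, FDR = 0.0460, edgeR). Acvr1 was read 2 to 11 times in the WT vehicle libraries and 14 to 19 times in those with FGF18. Of 8 genes of collagen secretion, 8 were tested, of which 1 rose, the transcription factor gene Creb3l1 (log2 FC 1.75 ± 0.31, FDR = 1.12e-04, edgeR), and 1 fell, the chaperone gene Dnajb11 (log2 FC -0.42 ± 0.14, FDR = 0.0284, edgeR). Creb3l1 was read 7 to 8 times in the WT vehicle libraries and 26 to 35 times in those with FGF18. Of the matrix receptors and turnover genes, 4 of 8 were tested and edgeR called 0 in WT RCS (2 at an unadjusted p under 0.05). With FGF18 in the knockout, edgeR called 0 of the 34 genes tested in these lists (3 at an unadjusted p under 0.05). The interaction term passed for 6 of the 34, against 10.9% of all genes tested. Beside Prelp, Fmod and Podnl1, these were C1qtnf1 (log2 difference -2.97 ± 0.69, FDR = 0.00467), Creb3l1 (-1.59 ± 0.41, FDR = 0.0106) and Fstl1 (-0.61 ± 0.18, FDR = 0.0321, edgeR). A difference between genotypes was not shown for Vgf (FDR = 0.0502), Vasn (0.0615), Dnajb11 (0.0718), Mia (0.159), Acvr1 (0.290) or Unc5b (0.421, edgeR).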

How the data were processed

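QuantSeq 3′ libraries of 12 RCS cultures, 3 per group, were used. Trimming (Trim Galore), alignment to rn6 (STAR) and counting (htseq-count) were done by the authors (versions and strand setting not given in the sources used here). The methods name Gencode v19, while the identifiers are rat Ensembl genes. The deposited values are raw read counts per gene and library. Replicates are described as biological, and the spread measured is that between these cultures.

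The counts were tested in R 4.3.3 with edgeR 4.0.16. filterByExpr (minimum count 10, minimum total 15) left 7378 of 32754 genes, and TMM scaling, 1 model with 4 group means, the quasi-likelihood test and Benjamini-Hochberg adjustment followed. Rows for reads not assigned to a gene (81.2% to 87.5% of a library) were left out. Standard errors are log2 fold changes over the root of F. The 36 matching symbols leave out 1 gene that is not reported here. Symbols came from 1998 identifier pairs, of which 1418 were tested. Promoters came from the RefSeq table of GRCr8. The members and lists were chosen with earlier results of these data known. Named genes are the members, and in each further list up to 4 called with FGF18 in WT RCS, by FDR. Alternatives were the likelihood-ratio test, RLE normalization, no filter, a replicate block, the 2 groups compared alone, DESeq2 1.42.0 and leaving out each library. Floors of 3 reads cover counting error only.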

Additional observations from a re-analysis of the deposited data

Results flagged for a closer look

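The effect of FGF18 differed between WT and FGFR3/4KO RCS, by the edgeR test of the difference itself, in 3 genes. On the log2 scale, the change in the knockout minus that in WT was -1.71 for Col6a2, -1.04 for Timp2 and -0.79 for Serpinb8. The Serpinb8 difference lost its call in 8 of 17 alternatives, DESeq2 and the fit without the filter among them, and the other 2 kept theirs in all 17. Each rose with FGF18 in 3 of 3 WT libraries relative to all WT vehicle libraries.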

How the results depend on the processing

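Of the 30 calls on single genes, 21 kept their direction and their side of the threshold in all alternatives run, 9 lost the call in at least 1, and 0 reversed. The counts of called genes that moved by more than 1.5 times were as follows. Genes lower with FGF18 in WT RCS numbered 1, and 2 by the likelihood-ratio test and 1 to 2 with 1 library left out. For the interaction, genes with a higher effect in the knockout numbered 0, 1 without the filter and 0 to 1 with 1 library left out, and those with a lower effect 3, and 2 to 5 with 1 library left out. Between genotypes with vehicle, 2 genes were lower, 1 by DESeq2 and 1 to 2 with 1 library left out. With FGF18, 5 were lower and 3 to 5 with 1 library left out. Over all genes, FGF18 in FGFR3/4KO RCS changed 0, but 3 by the likelihood-ratio test, 20 without the filter and 2 in those groups alone. Of the genes that the filter removed, Col1a1 was called with FGF18 in WT RCS without the filter (FDR = 8.86e-04), by DESeq2 (0.0232) and in 9 of the 12 fits with 1 library left out, and Adamts4 in 5 alternatives. Col1a1 was also called in 8 alternatives between genotypes with vehicle and in 8 for the interaction. It lay above the filter's level in 1 library of WT RCS with FGF18 and 1 of the knockout with vehicle, and Adamts4 in 2 of WT RCS with FGF18. Entry through so few libraries favours a call. The Col5a2 interaction was past the threshold in 4 alternatives.

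Replicates share only a number across groups. The correlation of deviations was -0.21 to 0.05 over 18 pairs, and in 7 of 36 comparisons a library correlated best with its own number. With the replicate block, 4 genes were higher and 1 lower with FGF18 in WT RCS, 0 and 0 in the knockout, 0 and 3 for the interaction, 7 and 2 between genotypes with vehicle and 5 and 4 with FGF18. The calls lost were Plod3 (0.0590) and Itgb5 (0.0759) with FGF18 in WT RCS, Col11a2 between genotypes with vehicle (0.0613) and Serpinb8 between genotypes with FGF18 (0.0569). The fit of 2 groups alone has no interaction. Depth limits the genes under about 11.3 CPM.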

Other observations

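Between genotypes with vehicle, where 8% of all genes tested were higher in FGFR3/4KO RCS and 6.07% lower, the ligand and antagonist list had 4 of 8 tested genes higher and 0 lower (1 lower at an unadjusted p under 0.05, edgeR), and the cartilage matrix list 2 of 9 higher and 2 lower. This comparison and that of FGF18 in WT RCS share the WT vehicle libraries, so values of the genes named above are given with no reading of their directions. C1qtnf1 (log2 FC 2.43 ± 0.58, FDR = 0.00486), Vasn (log2 FC 1.16 ± 0.31, FDR = 0.00996), Unc5b (log2 FC 1.43 ± 0.21, FDR = 2.04e-05) and Creb3l1 (log2 FC 1.83 ± 0.33, FDR = 2.60e-04, edgeR) were higher in the knockout with vehicle, as were Fmod (log2 FC 1.01 ± 0.13, FDR = 5.60e-06), Prelp (log2 FC 0.49 ± 0.11, FDR = 0.00305) and Dnajb11 (log2 FC 0.68 ± 0.14, FDR = 0.00122, edgeR). Mia was lower in the knockout (log2 FC -0.35 ± 0.11, FDR = 0.0380, edgeR). C1qtnf1 was read 2 times in each WT vehicle library and 4 to 14 times in the knockout vehicle libraries, so its value rests on few reads. Podnl1 (log2 FC 0.27 ± 0.18, FDR = 0.335), Fstl1 (log2 FC 0.26 ± 0.13, FDR = 0.197) and Acvr1 (log2 FC 0.76 ± 0.57, FDR = 0.410, edgeR) did not pass the test, and Vgf was read at most 1 time in each library of both groups. With FGF18 present, where 16.9% of all genes were higher and 17% lower, the cartilage matrix list had 4 of 9 tested genes higher in FGFR3/4KO RCS and 4 lower, among them Fmod at log2 FC 1.79 ± 0.13, FDR = 7.01e-11 and Podnl1 at log2 FC -0.69 ± 0.16, FDR = 0.00101 (edgeR).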
